A study of Mus musculus with 20 samples.

Results

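The matrix metalloproteinases (Mmp), the membrane-anchored ADAM proteases, the secreted ADAMTS proteases, the ADAMTS-like proteins (Adamtsl) and the tissue inhibitors of metalloproteinases (Timp) were followed in RNA of the mouse abdominal aorta. The genes were taken by symbol, as one of these 5 names with a number, and by having an annotated transcript in the deposited tables of wild-type (WT) animals or of animals labelled KO and given angiotensin II (Ang II). Of the 84 such genes in the GENCODE M21 annotation, 49 were listed, 45 had a transcript in both sets of tables, and 41 of these averaged 1 FPKM or more across the 15 libraries compared. FPKM counts sequenced fragments relative to transcript length and sequencing depth. The 41 were 13 Mmp, 10 Adam, 9 Adamts, 5 Adamtsl and 4 Timp genes, and they are the members tested, beside 12643 genes in all of the 15346 listed.

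The series concerns DAPK1, a calcium/calmodulin-dependent protein kinase, in hypertension. It has 20 libraries, 1 per animal number, in 4 groups of 5: WT with saline, WT with Ang II (500 ng/kg/min), KO with saline, and KO with the same Ang II dose. Ang II is the vasoconstrictor peptide whose infusion raises blood pressure in mice. Not given in the sources used here are strain, age, sex, length of infusion and how the KO allele was made. The description of the libraries labelled KO saline calls them WT; the KO of their title and genotype was followed, and KO below always means that label.

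These proteins set how fast the matrix of an artery is cut and rebuilt. MMPs cut collagens, elastin and other matrix proteins, ADAMs release growth factors, cytokine receptors and adhesion molecules from the cell surface, and ADAMTS proteases cut proteoglycans such as versican or trim procollagens. ADAMTS-like proteins carry the same ancillary domains without a protease, and TIMPs bind and block the active site of the proteases. Most are made as inactive precursors, so an RNA level says nothing of their activity.

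Depth worked out from the FPKM steps was 59.0 to 74.5 megareads in the 15 libraries compared. By group, Dapk1 was at 12.1 ± 2.39, 10.7 ± 5.80 and 8.58 ± 3.51 FPKM (mean ± SD, n = 5) in WT saline, WT Ang II and infused KO, with overlapping groups, so its RNA did not separate the libraries labelled KO from WT. The 10 smooth muscle markers summed to 5723 to 14735 FPKM in the 15 libraries, against 153 to 613 for 9 endothelial ones. Tissue around the vessel varied between libraries: 7 brown adipocyte markers summed to 548 to 3079 FPKM in WT given saline, 139 to 2360 in WT given Ang II and 337 to 2348 in KO Ang II. The 9 sympathetic neuron markers summed to 9.47 to 506, 10.4 to 161 and 4.61 to 1010 FPKM in the same order. Intestinal transcripts were at 25.04 FPKM or more in all 5 KO Ang II libraries and in WT Ang II animals WTAngII580 and WTAngII581, and at 5.59 or less in the other 8. The same libraries were the deepest, from 69.3 megareads up, against at most 67.8 in the other 8. Depth and intestinal transcripts therefore cannot be told apart here, and both went with the KO label. The part of these tissues in the differences below was not tested, apart from the fits named. In whole tissue, fewer cells of a type and less RNA per cell cannot be told apart.

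The inhibitors Timp3 and Timp2 were the most abundant RNAs of the group. Timp3 (ENSMUSG00000020044.13, chromosome 10, 86300372 to 86349506, GRCm38), the TIMP that stays bound to the matrix and also blocks ADAM17 and ADAMTS proteases, averaged 323 FPKM over the 15 libraries. Timp2 (ENSMUSG00000017466.9, chromosome 11, 118301069 to 118355740), which both inhibits MMPs and takes part in activating pro-MMP2, averaged 276 FPKM. Together they made up 46.9% to 54.7% of the summed FPKM of all 49 genes in 14 libraries, and 38.9% in KO Ang II animal KOAngII612. Timp1 averaged 32.2 and Timp4 7.25 FPKM. Of the 41 members, 2 (Timp3 and Timp2) averaged over 100 FPKM, 19 at least 10 FPKM and 17 under 5 FPKM, down to Mmp8 with 1.06 FPKM.

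**Figure D1:**
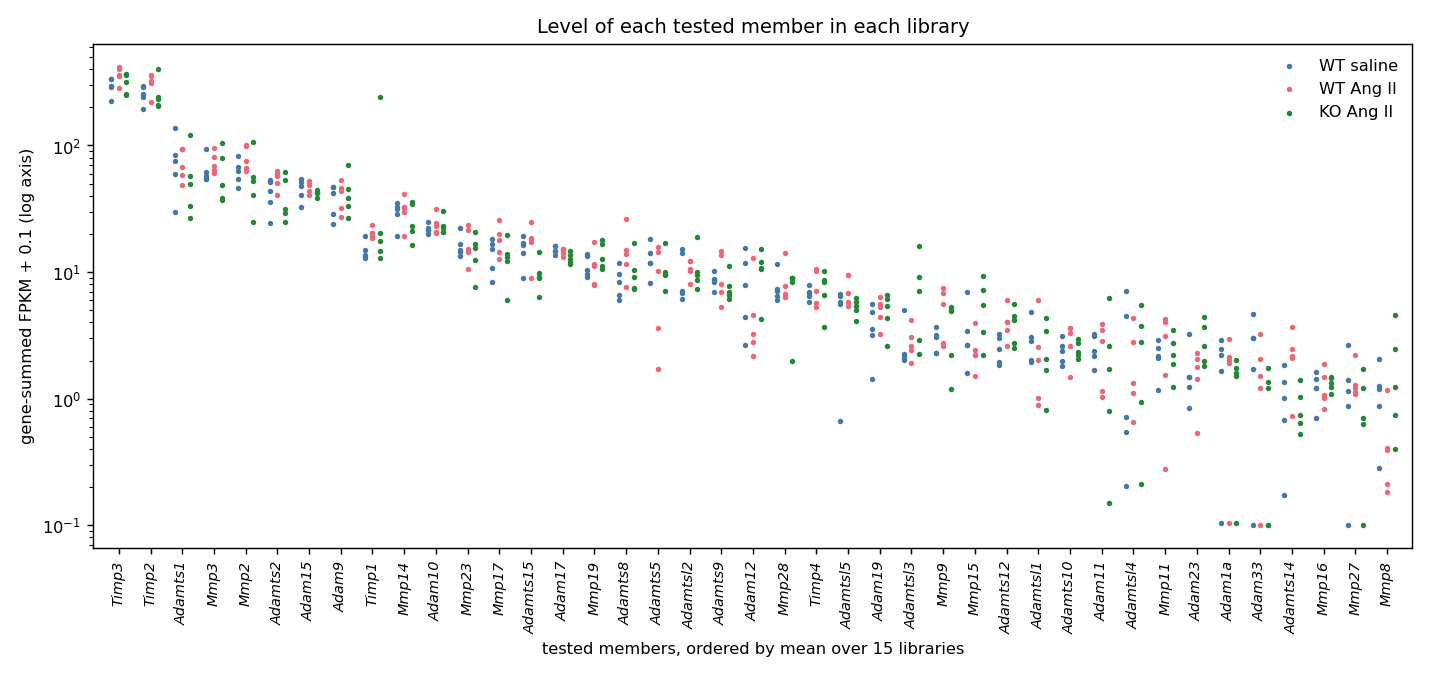
FPKM of each of the 41 tested members in each library, on a log axis with 0.1 added, ordered by the mean over 15 libraries. Points are animals, coloured by group (5 WT saline, 5 WT Ang II, 5 KO Ang II). Timp3 and Timp2 lead by mean, and Timp1 has 1 KO Ang II point at 242 FPKM, above Timp2 in that library.

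Timp3 was at 296, 225, 334, 334 and 292 FPKM in WT saline, 401, 358, 418, 283 and 352 in WT Ang II and 316, 255, 367, 359 and 251 in KO Ang II. Here and below, values within a group follow the animal numbers, from WTNS_369 up to WTNS_550, from WTAng_II519 up to WTAngII581 and from KOAng_II402 up to KOAngII628. Of the WT Ang II animals 4 exceeded every saline animal, yet WT Ang II animal WTAngII580 lay below 4 of the 5 saline animals. Timp2 was at 243, 196, 289.8, 295 and 256 FPKM in WT saline, 314, 364, 325, 221 and 353 in WT Ang II and 207, 240.2, 401, 233 and 205 in KO Ang II. Animal KOAngII560 stood far above the other 4 KO Ang II animals. Timp4 ranged over 5.66 to 7.75, 5.23 to 10.5 and 3.61 to 10.1 FPKM in the 3 groups, which overlapped.

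Timp1 (ENSMUSG00000001131.11, chromosome X, 20870166 to 20874735), a secreted inhibitor known to be inducible by cytokines, was steady in 14 libraries and very high in 1. It was at 19.1, 14.7, 13.6, 13.2 and 12.8 FPKM in WT saline, 19.1, 18.5, 20.3, 23.6 and 20.2 in WT Ang II and 20.4, 17.4, 14.6, 242 and 12.8 in KO Ang II. WT Ang II animals sat near or above the top of the saline range, and KO Ang II animal KOAngII612 was 10.3 times the next highest of all 15 libraries. The same library also held the highest values of Mmp3 (105 FPKM), Adam9 (70.4), Mmp19 (17.8) and Adam19 (6.52), and the lowest of Mmp9 (1.10), Mmp28 (1.89) and Timp4 (3.61), 5 highest and 6 lowest in all among the 41 members. Its summed macrophage markers, 559 FPKM, were the highest of the 15 libraries and its endothelial and sympathetic neuron markers the lowest; their part in the Timp1 level was not tested. Both listed Timp1 transcripts were high there, ENSMUST00000009530 at 199.8 and ENSMUST00000115342 at 42.3 FPKM.

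MMP14, TIMP2 and MMP2 act together at the cell surface: TIMP2 bridges MMP14 (MT1-MMP) and pro-MMP2, which a neighbouring MMP14 then cuts on the way to its active form. The stretches just upstream of the transcription starts of Mmp14 and Timp2 are shown because these RNAs varied together across animals, that of Timp1 because of its single high library, and that of Adamts14 because its transcript differed in KO saline animals. They are RefSeq sequence of GRCm38.p6, 5′ to 3′ on the gene's strand, ended before the first listed transcript start, and capitals mark matches on either strand. The motifs searched were the GC box, spelled GGGCGG, the CCAAT box, spelled by its name, the TATA box, spelled TATAAA, the AP-1 site, spelled TGANTCA, and the CAGA box of SMAD proteins, spelled AGACAGAC.
Mmp14, chr14:54431348-54431597, plus strand, 250 bases: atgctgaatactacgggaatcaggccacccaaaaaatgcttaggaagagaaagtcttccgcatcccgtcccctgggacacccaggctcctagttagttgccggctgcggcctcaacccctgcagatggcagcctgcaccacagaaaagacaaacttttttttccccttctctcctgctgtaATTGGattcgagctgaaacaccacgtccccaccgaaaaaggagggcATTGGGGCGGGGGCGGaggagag
Timp2, chr11:118355507-118355661, minus strand, 155 bases: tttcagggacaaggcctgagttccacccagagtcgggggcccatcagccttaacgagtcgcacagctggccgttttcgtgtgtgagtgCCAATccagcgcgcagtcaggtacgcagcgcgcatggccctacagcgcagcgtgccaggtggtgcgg
Timp1, chrX:20869916-20870165, plus strand, 250 bases: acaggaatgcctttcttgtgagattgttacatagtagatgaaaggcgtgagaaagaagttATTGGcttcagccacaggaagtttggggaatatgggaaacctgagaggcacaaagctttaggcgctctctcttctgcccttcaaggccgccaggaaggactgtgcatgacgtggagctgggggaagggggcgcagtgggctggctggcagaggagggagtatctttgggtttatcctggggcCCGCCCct
Adamts14, chr10:61273439-61273669, minus strand, 231 bases: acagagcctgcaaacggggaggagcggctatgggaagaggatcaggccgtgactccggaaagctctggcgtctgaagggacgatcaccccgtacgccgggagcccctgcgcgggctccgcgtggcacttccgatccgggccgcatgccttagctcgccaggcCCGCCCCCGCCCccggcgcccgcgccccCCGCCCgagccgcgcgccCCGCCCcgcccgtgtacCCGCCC
Mmp14 had 2 GC boxes and 2 CCAAT matches, of which a GC box and a CCAAT match overlap. Timp1 had 1 of each, Timp2 had 1 CCAAT match and Adamts14 had 5 GC boxes. Full 250-base windows were matched for 27 of the 41 tested members. Those of Adamtsl5 and Adam1a lay 2329 and 376 bases from the listed start. GC boxes were found for 18 of the 27 and in 32.7% of 32851 windows of all genes. CCAAT was found for 7 of 27 and in 33.9%, and TATA boxes for 3 of 27 (Adamts1, Adamtsl2 and Mmp3) and in 12.4%. AP-1 matches were found for Adam19 and Mmp3, 2 of 27, and in 6.75% of all windows, and CAGA boxes for 0 of 27 and in 1.55%. Matches that overlap another of the same kind were counted once.

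Among the MMPs, Mmp3 (stromelysin-1, which cuts proteoglycans and activates other MMPs) and Mmp2 (gelatinase A) led with means of 66.4 and 66.3 FPKM, followed by Mmp14 (28.7), the membrane-tethered Mmp23 (15.9) and the lipid-anchored Mmp17 (14.9). Mmp2 (ENSMUSG00000031740.8, chromosome 8, 92827291 to 92853420) was at 54.4, 46.04, 82.6, 67.3 and 62.4 FPKM in WT saline, 75.9, 101, 65.8, 62.2 and 98.5 in WT Ang II and 24.6, 52.3, 106, 55.8 and 40.7 in KO Ang II. Of the 5 KO Ang II animals 4 were below every WT Ang II animal, and animal KOAngII560 was above them all. Mmp14 (ENSMUSG00000000957.11, chromosome 14, 54431612 to 54445364) was at 31.2, 19.3, 28.4, 32.3 and 34.8 FPKM in WT saline, 32.7, 32.2, 29.8, 19.2 and 41.1 in WT Ang II and 16.3, 23.1, 35.6, 34.2 and 20.96 in KO Ang II, lowest in KO Ang II animal KOAng_II402 and highest in WT Ang II animal WTAngII581. Mmp3 was at 92.9, 57.8, 54.6, 61.3 and 53.8 FPKM in WT saline, 68.9, 80.3, 63.9, 60.2 and 95.8 in WT Ang II and 38.3, 48.4, 79.3, 105 and 36.8 in KO Ang II, and its 3 groups overlapped throughout. Mmp23 ranged over 7.49 to 23.4 and Mmp17 over 5.96 to 25.7 FPKM in the 15 libraries, both lowest in KO Ang II animal KOAngII537.

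Across the 15 animals the 3 RNAs of the activation complex varied together. Pairs of these 3 with other members were not computed, so nothing here makes the pattern particular to the complex. On log2(FPKM + 1), Timp2 and Mmp2 had Pearson's r = 0.87 (permutation p = 2e-05, the smallest the permutations can give, adjusted 0.00012) and Spearman's rho = 0.92 (p = 2e-05, adjusted 0.00024). Mmp14 had r = 0.78 with Mmp2 (permutation p = 0.00042, adjusted 0.00144; rho = 0.70, p = 0.00498, adjusted 0.00854) and r = 0.77 with Timp2 (permutation p = 0.00048, adjusted 0.00144; rho = 0.72, p = 0.00342, adjusted 0.00684). Without the 2 libraries farthest from the median of the first-named gene, r was 0.81, 0.74 and 0.73, after subtracting group means 0.85, 0.78 and 0.79, and over the 12 animals numbered 500 or higher 0.91, 0.65 and 0.71. All 3 also followed the mean of 11 fibroblast markers, with r = 0.69 for Mmp14, 0.74 for Timp2 and 0.75 for Mmp2 (permutation p = 0.00114, 0.0013 and 0.0006, adjusted 0.00195, 0.00195 and 0.00144). Spearman's rho was 0.79, 0.60 and 0.69 (permutation p = 0.00082, 0.0198 and 0.0061, adjusted 0.003, 0.0198 and 0.00915), and r without the 2 libraries farthest from the median marker mean was 0.63, 0.54 and 0.66. With the 10 smooth muscle markers r was 0.74, 0.77 and 0.51 (permutation p = 0.0019, 0.00116 and 0.0529, adjusted 0.00253, 0.00195 and 0.0529), rho was 0.76, 0.79 and 0.64 (permutation p = 0.0017, 0.001 and 0.0134, adjusted 0.00408, 0.003 and 0.0161), and r without the 2 farthest libraries was 0.71, 0.73 and 0.47. The points share their library, so depth and tissue makeup enter every axis, and their part was not tested.

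**Figure D2:**
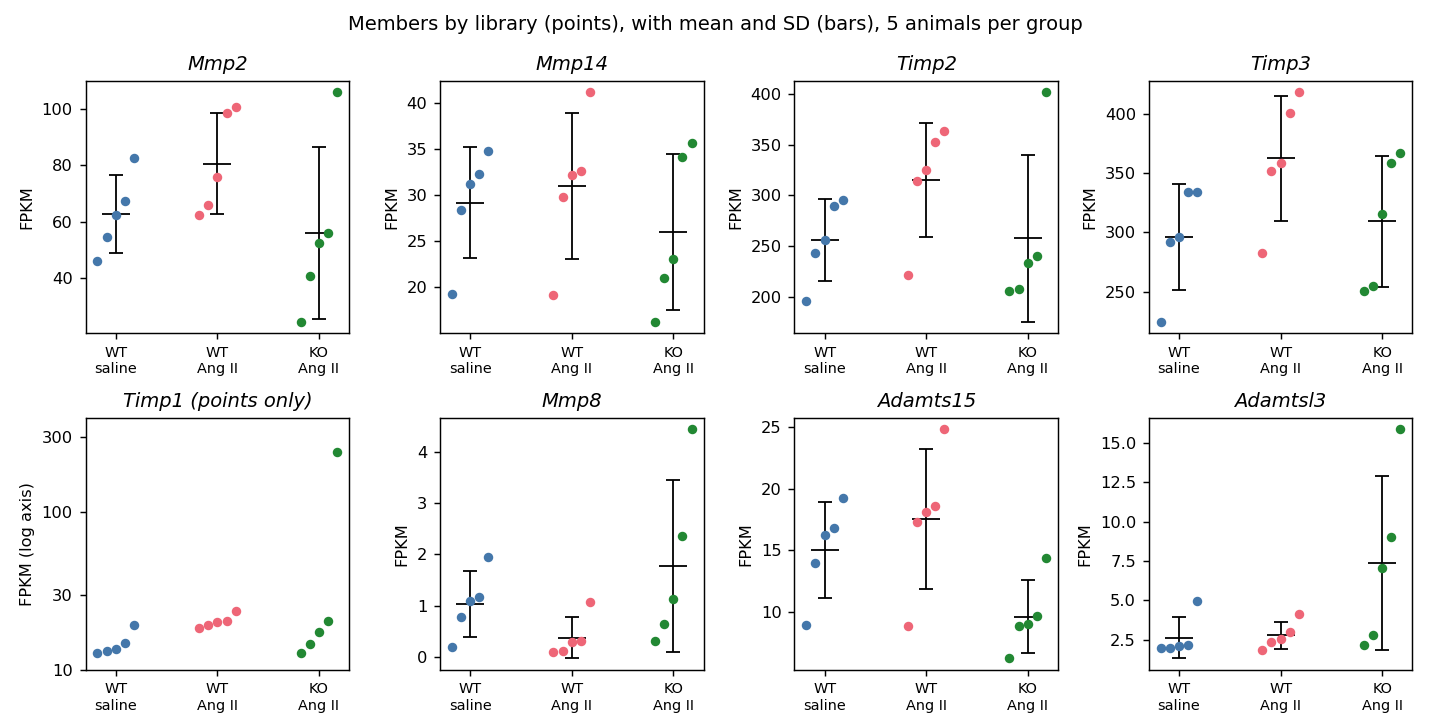
FPKM of 8 members in each animal (points), by group, with mean and SD (bars); Timp1 is on a log axis with points only. Mmp2, Mmp14 and Timp2 show overlapping groups with KO Ang II animal KOAngII560 at the top for Mmp2 and Timp2, and Timp1 shows animal KOAngII612 at 242 FPKM.

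Mmp8, the collagenase stored in neutrophil granules, followed the neutrophil markers. It was at 1.16, 1.10, 0.779, 0.183 and 1.94 FPKM in WT saline, 0.113, 1.08, 0.310, 0.0831 and 0.292 in WT Ang II and 1.13, 0.640, 2.36, 0.303 and 4.44 in KO Ang II. KO Ang II animal KOAngII628, the highest, also had the highest sum of neutrophil markers, 233 FPKM against 2.31 to 47.7 in the other 14 libraries. Over the 15 animals r was 0.91 with the mean of the 5 tested neutrophil markers (permutation p = 2e-05, adjusted 0.00012; rho = 0.83, p = 0.00044, adjusted 0.00264), and 0.81 without the 2 libraries farthest from the median of the marker mean. This pair and the 2 like it below were chosen after their values were seen, and adjusted values are over 12 relations. Mmp9 (gelatinase B) ranged over 2.18 to 3.60 FPKM among saline animals, 2.49 to 7.32 with Ang II in WT and 1.10 to 5.16 with Ang II in KO.

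Among the ADAMs, Adam15, Adam9, Adam10 and Adam17 were the most abundant, and Adam15, Adam10 and Adam17 varied little between animals. Adam15 averaged 44.8 FPKM and Adam9 40.2. Adam10, a main sheddase of Notch receptors, and Adam17, which releases tumour necrosis factor from its membrane precursor, averaged 23.1 and 14.03 FPKM. The highest library was 1.58 times the lowest for Adam10, 1.39 times for Adam17 and 1.67 times for Adam15, against 2.97 times for Adam9 and 7.45 times for Adam12, next in the family with a mean of 7.93 FPKM. Adam17 (ENSMUSG00000052593.16, chromosome 12, 21323509 to 21373632) was at 14.5, 13.6, 15.9, 14.6 and 15.96 FPKM in WT saline, 15.2, 14.9, 15, 13.1 and 13.9 in WT Ang II and 11.8, 11.5, 13.6, 14.5 and 12.5 in KO Ang II, where 3 animals lay below all WT animals.

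Within the steady Adam17 sum the reads divided between 2 transcripts of nearly the same length. In 9 libraries the protein-coding ENSMUST00000064536 (4443 nt) took most of the sum and in 6 ENSMUST00000127974 (4423 nt), annotated as a target of nonsense-mediated decay. The share of ENSMUST00000064536 was 67.2, 92.7, 21.96, 93.9 and 75.3 percent in WT saline, 9.68, 91.9, 77.7, 90.4 and 9.71 percent in WT Ang II and 13.03, 95.98, 11.4, 74.9 and 10.4 percent in KO Ang II. Low-share libraries occurred in all 3 groups, 1 of 5, 2 of 5 and 3 of 5. How reads were divided among near-identical transcripts was not tested, so the gene sum was used.

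**Figure D3:**
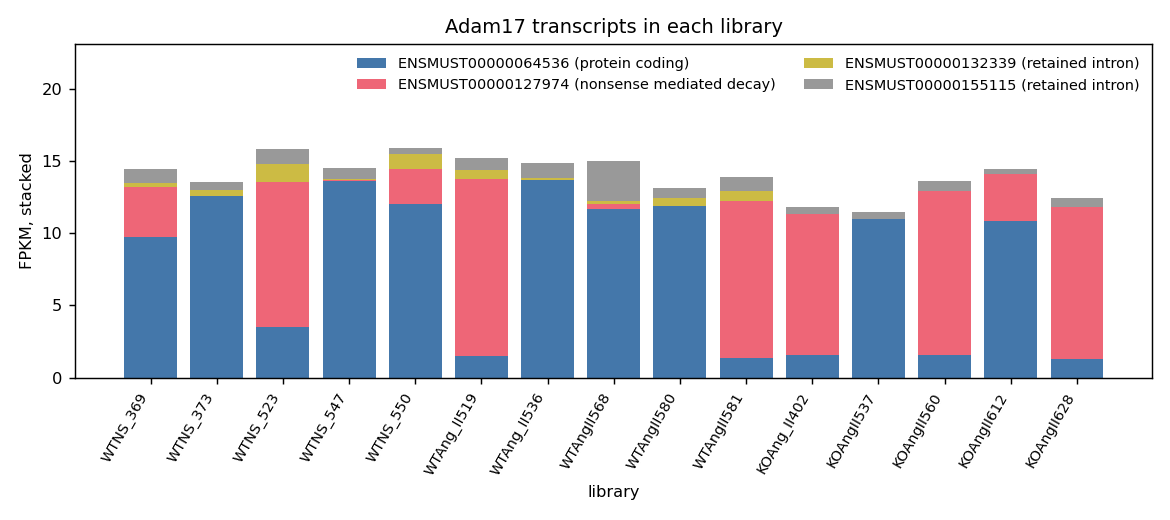
FPKM of the 4 listed Adam17 transcripts stacked for each of the 15 libraries, with the annotated biotype of each. The stack stays between 11.5 and 15.96 FPKM, while the coding transcript is a minor share in 6 libraries.

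Adam12 (meltrin alpha) was at 11.6, 15.3, 2.56, 4.34 and 7.76 FPKM in WT saline, 2.05, 4.44, 3.16, 12.8 and 2.68 in WT Ang II and 11.8, 10.6, 4.19, 15.2 and 10.4 in KO Ang II. It was high in libraries rich in white adipocyte markers, with r = 0.70 to the mean of 7 markers (permutation p = 0.00538, adjusted 0.00587; rho = 0.68, p = 0.007, adjusted 0.00933) and 0.59 without the 2 farthest libraries. Animal KOAngII612 was an exception, with Adam12 at 15.2 FPKM and the lowest white adipocyte sum of its group, 1796 FPKM. Adam23, a protease-dead ADAM known from neurons, ranged over 0.747 to 3.15, 0.435 to 2.20 and 1.70 to 4.29 FPKM in the 3 groups, with r = 0.71 to the mean of 9 sympathetic neuron markers (permutation p = 0.0033, adjusted 0.00396; rho = 0.60, p = 0.0188, adjusted 0.0198) and 0.50 without the 2 farthest. Of Adam23, 3 of the 5 listed transcripts were in 1 set of tables only.

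Among the secreted ADAMTS proteases, Adamts1 (69.02 FPKM) and Adamts2 (45.3) led, followed by Adamts15 (14.1), Adamts8 (11.1) and Adamts5 (10.8). Adamts1, 5, 8 and 15 belong to the proteoglycan-cutting branch, and Adamts2 and Adamts14 trim the amino ends of fibrillar procollagens. Adamts1 spanned 5.203 times from its lowest to its highest library, at 84.3, 29.5, 138, 75.4 and 59.7 FPKM in WT saline, 67.1, 58.2, 93.9, 48.8 and 93.4 in WT Ang II and 57.2, 33.4, 49.2, 121 and 26.5 in KO Ang II. Adamts2 was at 35.5, 24.3, 53.1, 51.5 and 43.3 FPKM in WT saline, 62.2, 57.8, 50.5, 40.7 and 59.8 in WT Ang II and 29.3, 24.8, 61.9, 53.6 and 31.3 in KO Ang II; 3 of the 5 KO Ang II animals were below every WT Ang II animal. Of the ADAMTS-like genes, Adamtsl2, whose product binds fibrillin and a latent TGF-beta binding protein, averaged 10.4 FPKM. Adamtsl5, Adamtsl3, Adamtsl1 and Adamtsl4 averaged 5.81, 4.25, 2.54 and 2.33 FPKM.

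WT Ang II against WT saline asks what Ang II goes with in the WT aorta. No member passed: 0 of 41 had a limma adjusted p under 0.05, beside 0% of all 12643 genes, and 0 also by voom on recovered reads. At an unadjusted p under 0.05 (618 of all genes), 3 of 41 were higher (3.07% of all genes) and 0 of 41 lower (1.82% of all genes). The 3 were Adamts14, Adamts12 and Adamts8. Adamts14 averaged 2.14 FPKM in WT Ang II, 0.913 in the saline group and 0.768 in KO Ang II, so it passed the 1 FPKM filter only through the group where it was high, and its place in this count and in the next comparison's supports nothing. The difference was above 0 for 30 of 41 members, beside 52.6% of all genes, and its median was 0.09 on the log2(FPKM + 1) scale, beside 0.01 over all genes. It was above 0 for 10 of 13 Mmp, 4 of 10 Adam, 8 of 9 Adamts, 4 of 5 Adamtsl and 4 of 4 Timp genes. For 0 of 41 members did the groups not overlap, beside 0.997% of all genes. Timp1, at 20.4 ± 1.98 FPKM in WT Ang II and 14.7 ± 2.57 in WT saline (mean ± SD), differed by 0.45. Its standard error was 0.588 and its unadjusted limma p was 0.453. The spread behind them came from all 15 libraries, including KO Ang II animal KOAngII612 at 242 FPKM, which is in neither group. This p therefore cannot tell whether Timp1 differed between the WT groups, and neither the count nor the order by p can place Timp1 here. By library Timp1 was at 12.8 to 19.1 FPKM in WT saline and at 18.5 to 23.6 FPKM in WT Ang II. In the same comparison 12 of 12 macrophage markers were above 0, with a median of 0.56 and sums of 243 to 366 FPKM in saline and 376 to 527 in Ang II, and 1 of 7 brown adipocyte markers was above 0, with a median of -1.03. Above 0 were also 9 of 10 smooth muscle (median 0.26), 8 of 11 fibroblast (median 0.13) and 7 of 9 endothelial markers (median 0.02). The same held for 10 of 11 intestinal markers (median 0.69) and 5 of 5 mast cell markers (median 1.04). Against these stood 1 of 9 sympathetic neuron markers (median -1.38) and 0 of 7 skeletal muscle markers (median -0.92), and the part of all these tissues was not tested.

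Adamts14 (ENSMUSG00000059901.12, chromosome 10, 61197112 to 61273438) was at 0.906, 0.0736, 1.24, 0.584 and 1.76 FPKM in WT saline and 3.60, 2.08, 0.631, 2.38 and 1.99 in WT Ang II, so 4 of 5 infused animals lay above all saline animals and 1 within them. The difference was 0.71 (95% interval 0.10 to 1.32, unadjusted p = 0.0252, limma adjusted p = 0.941). It was 1.34 with a pseudocount of 0.1 in place of 1, and 1.54 by voom, which works on log2 counts of the recovered reads. Adamts12, which cuts the matrix protein COMP, was at 1.74, 1.85, 3.12, 2.92 and 2.36 FPKM in WT saline and 3.91, 5.93, 2.51, 3.38 and 3.91 in WT Ang II, with 4 infused animals above the saline range and 1 within it, a difference of 0.52 (95% interval 0.06 to 0.98, unadjusted p = 0.0297, limma adjusted p = 0.941). Adamts8 was at 6.53, 5.89, 11.7, 9.63 and 8.18 FPKM in WT saline and 26.03, 14.9, 13.7, 7.57 and 11.4 in WT Ang II, with 3 infused animals above the saline range and 2 within it, a difference of 0.68 (95% interval 0.06 to 1.29, unadjusted p = 0.0342, limma adjusted p = 0.941). With brown adipocyte, sympathetic neuron and skeletal muscle marker means in the fit, the Adamts8 difference was 0.27 and that of Adamts12 0.34, and without animals numbered below 500 they were 0.44 and 0.34. The next members by p were Timp3 with 0.29, Adamtsl5 with 0.64, Mmp9 with 0.56, Adamts5 with -0.73 and Adamts2 with 0.41, all with a limma adjusted p of 0.941. With the marker means in the fit, the differences were 0.09 for Timp3, 0.35 for Adamtsl5 and 0.02 for Adamts2. Without animals numbered below 500 they were 0.17, 0.19 and 0.12 in the same order. Adamtsl5 was at 0.56 FPKM in saline animal WTNS_373 and its difference was 0.21 without it, and that of Adamts2 was 0.24. Adamts5 was at 1.61 FPKM in WT Ang II animal WTAngII580, the lowest of the 15 libraries, and its difference was -0.33 without it.

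**Figure D4:**
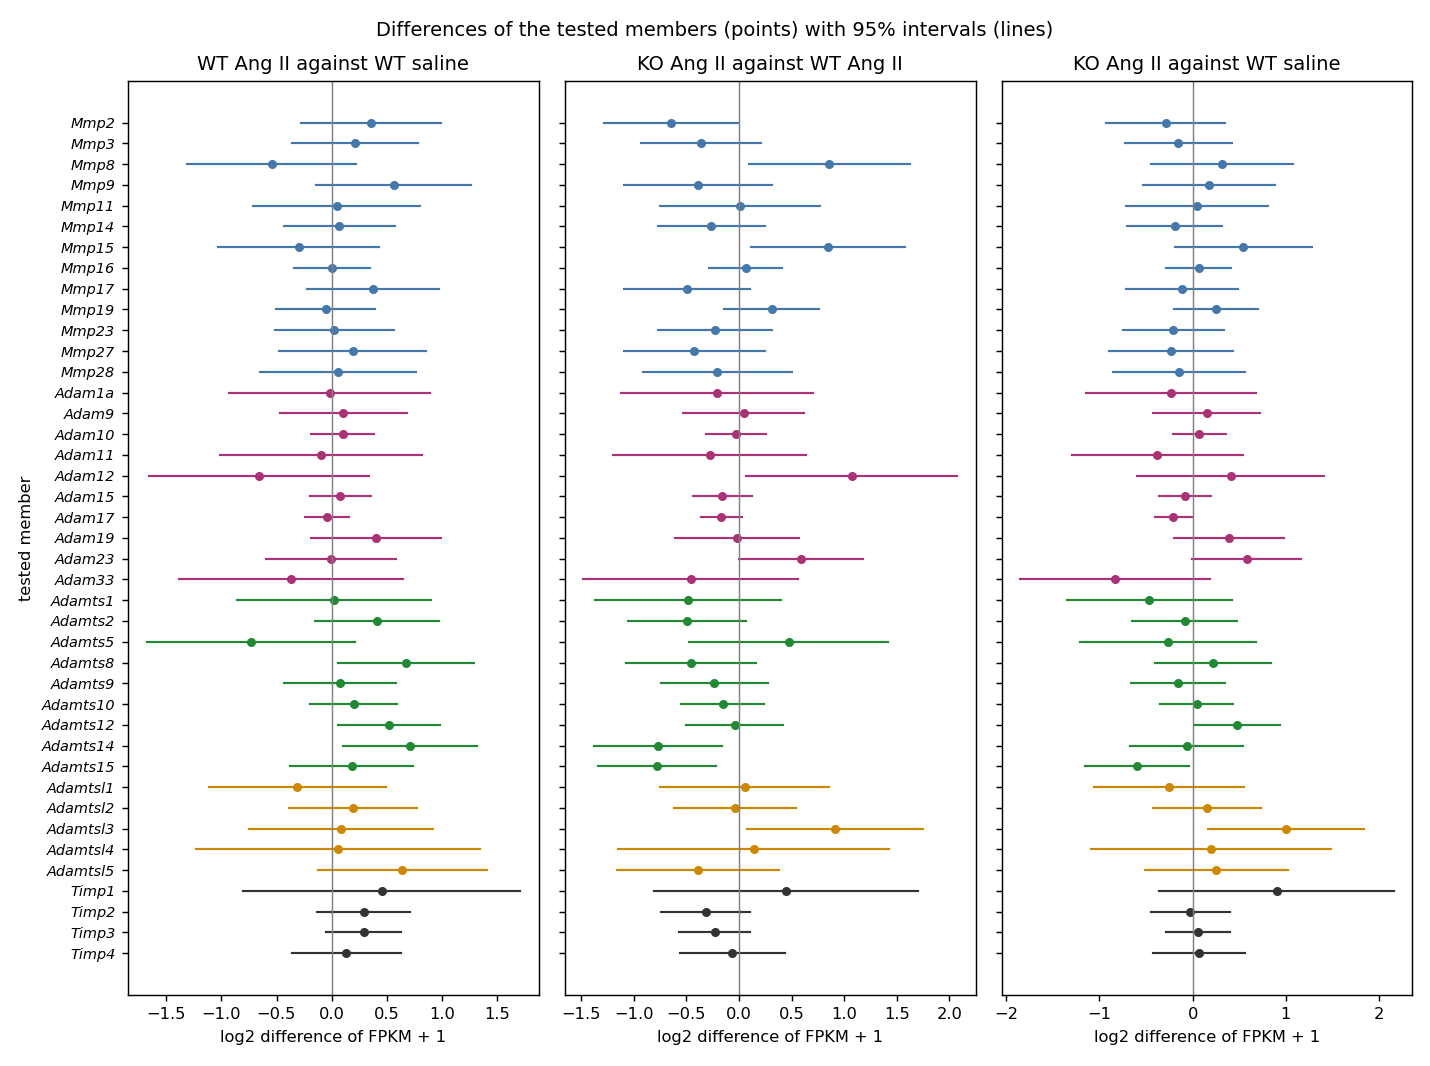
Log2 differences of FPKM + 1 for the 41 tested members (points) with 95% intervals from limma (lines), coloured by family, in the 3 comparisons. Most intervals cross 0, and none of the members passed an adjusted p of 0.05.

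KO Ang II against WT Ang II sets the infused libraries labelled KO beside the infused WT libraries. Again 0 of 41 members passed the limma adjusted p of 0.05, beside 0% of all genes, and 0 by voom. At an unadjusted p under 0.05 (1003 of all genes), 4 of 41 were higher, Mmp15, Mmp8, Adamtsl3 and Adam12 (3.69% of all genes), and 3 of 41 lower, Adamts15, Adamts14 and Mmp2 (4.24% of all genes). The difference was above 0 for 13 of 41 members, beside 48.6% of all genes, with a median of -0.17 beside -0.01 over all genes. By family it was above 0 for 5 of 13 Mmp, 3 of 10 Adam, 1 of 9 Adamts, 3 of 5 Adamtsl and 1 of 4 Timp genes. The median was 0.0047 with the 3 marker means in the fit, and the cause was not tested. The groups did not overlap for 0 of 41 members, beside 1.12% of all genes. Of the marker lists, 8 of 9 sympathetic neuron markers were above 0 with a median of 2.37, 2 of 10 smooth muscle markers with a median of -0.41 and 2 of 11 fibroblast markers with a median of -0.35. Of 11 intestinal markers 10 were above 0, with a median of 1.73 and 10 at an unadjusted p under 0.05. Above 0 were also 7 of 7 white adipocyte (median 0.37), 6 of 6 Schwann cell (median 0.69), 5 of 5 neutrophil (median 0.96) and 6 of 7 brown adipocyte markers (median 1.00), against 0 of 5 mast cell (median -0.45) and 1 of 7 skeletal muscle markers (median -0.72). The part of these tissues was not tested beyond the fits named.

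Adamts15 (ENSMUSG00000033453.8, chromosome 9, 30899155 to 30922452), a versican- and aggrecan-cutting protease, had the smallest p. It was at 18.2, 17.3, 24.9, 8.85 and 18.6 FPKM in WT Ang II and 6.24, 9.02, 14.4, 9.68 and 8.88 in KO Ang II, so that 4 of the 5 infused WT animals exceeded every KO animal and animal WTAngII580 lay among them. The difference was -0.78 (95% interval -1.34 to -0.22, unadjusted p = 0.00971, limma adjusted p = 0.610). With the marker means in the fit it was -0.38, and -0.43 among the libraries that carried intestinal transcripts, all 5 of KO Ang II and 2 of WT Ang II. Mmp2, with the values above, differed by -0.65 (95% interval -1.29 to -0.01, unadjusted p = 0.0464, limma adjusted p = 0.621), and by -0.40 without KO Ang II animal KOAng_II402. Over all alternatives run, the Mmp2 difference lay between -0.92 and -0.40. Adamts14 was at 0.423, 0.547, 0.648, 1.29 and 0.929 FPKM in KO Ang II, with 4 of 5 WT Ang II animals above all of them, and differed by -0.77 (95% interval -1.38 to -0.17, unadjusted p = 0.0162, limma adjusted p = 0.621). This difference was -0.45 with the marker means in the fit, -1.28 with a pseudocount of 0.1 and -1.37 on recovered reads, and the gene passed the filter only through WT Ang II.

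Of the members with higher means in KO Ang II, Mmp15 (MT2-MMP, a membrane-anchored protease) was at 1.41, 2.13, 2.09, 3.85 and 2.33 FPKM in WT Ang II and 7.07, 9.19, 5.41, 2.12 and 3.27 in KO Ang II, with 3 KO animals above the WT range and 2 within it. The difference was 0.84 (95% interval 0.11 to 1.57, unadjusted p = 0.0264, limma adjusted p = 0.621). It was 0.33 with the marker means in the fit, and 0.55 among the libraries that carried intestinal transcripts. Adamtsl3 was at 2.53, 1.82, 4.12, 2.34 and 2.99 FPKM in WT Ang II and 7.02, 2.13, 15.9, 2.78 and 9.01 in KO Ang II, with 3 KO animals above and 2 within the WT range, and differed by 0.91 (95% interval 0.08 to 1.75, unadjusted p = 0.0347, limma adjusted p = 0.621), or by 0.59 without KO animal KOAngII560. Mmp8 differed by 0.86 (95% interval 0.10 to 1.62, unadjusted p = 0.0301, limma adjusted p = 0.621), and by 0.57 without KO animal KOAngII628, the neutrophil-rich library, by 1.82 with a pseudocount of 0.1 and by 2.24 on recovered reads. It averaged 1.78 FPKM in KO Ang II, 1.03 in the saline group and 0.375 in WT Ang II, so it passed the 1 FPKM filter only through KO Ang II and its place in the count supports nothing. Adam12 differed by 1.07 (95% interval 0.07 to 2.07, unadjusted p = 0.0380, limma adjusted p = 0.621), by 0.69 with the marker means in the fit and by 0.59 among the libraries that carried intestinal transcripts. Adam23 was next by p, with 0.59 (limma adjusted p = 0.621), which was 0.17 with only the transcripts listed for all 15 libraries, 0.21 with the marker means and -0.03 on recovered reads.

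KO Ang II against WT saline had 13 of 12643 genes past the limma adjusted p of 0.05, which is 0.103%, and 0 of 41 members. At an unadjusted p under 0.05 (1058 of all genes), 2 of 41 members were higher, Adamtsl3 and Adamts12 (4.05% of all genes), and 2 of 41 lower, Adamts15 and Adam17 (4.32% of all genes). The difference was above 0 for 21 of 41 members, beside 52.7% of all genes, with a median of 0.05 beside 0.02. The groups did not overlap for 0 of 41 members, beside 1.83% of all genes. Of these 13 genes 9 were among the 11 intestinal markers, whose median difference was 2.29 with 10 of 11 above 0. Of 12 macrophage markers 12 were above 0, with a median of 0.31. So were 7 of 7 white adipocyte (median 0.26), 6 of 6 Schwann cell (median 0.71), 5 of 5 neutrophil (median 0.57) and 8 of 9 sympathetic neuron markers (median 0.86), against 0 of 7 skeletal muscle markers (median -1.75), and their part was not tested. Of 10 smooth muscle markers 3 were above 0 (median -0.13), and of 11 fibroblast markers 4 (median -0.14). This comparison shares its groups with both others.

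Adamtsl3 (ENSMUSG00000070469.12, chromosome 7, 82335694 to 82614450) was at 1.96, 4.96, 2.16, 1.94 and 2.08 FPKM in WT saline, so KO Ang II animals KOAng_II402, KOAngII560 and KOAngII628 lay above all saline animals, and the difference was 1.00 (95% interval 0.16 to 1.84, unadjusted p = 0.0226, limma adjusted p = 0.515). Adamts15 was at 16.3, 8.93, 19.3, 13.96 and 16.8 FPKM in WT saline and differed by -0.60 (95% interval -1.15 to -0.04, unadjusted p = 0.0384, limma adjusted p = 0.574). Adam17 differed by -0.21 (95% interval -0.40 to -0.01, unadjusted p = 0.0401, limma adjusted p = 0.578), with 1 of its 4 transcripts unlisted for KO Ang II and counted as 0 there. Adamts12 was at 2.64, 4.06, 5.51, 4.42 and 2.43 FPKM in KO Ang II and differed by 0.48 (95% interval 0.02 to 0.94, unadjusted p = 0.0431, limma adjusted p = 0.585). The next by p were Adam23 with 0.58, Adam33 with -0.83, Mmp15 with 0.55 and Timp1 with 0.90, with limma adjusted p of 0.609, 0.699, 0.729 and 0.747. The Timp1 difference rested on animal KOAngII612 and was 0.13 without it, 0.57 with sample quality weights and 1.39 with the marker means in the fit. That of Mmp15 was 0.35 without KO animal KOAngII537 and 0.14 without animals numbered below 500, and that of Adam23 was 0.27 with only the transcripts listed for all 15 libraries and -0.06 on recovered reads. Adam33 was listed at 0 in 4 of the 15 libraries, and its difference was -1.34 with the marker means, -1.32 without animals numbered below 500 -1.60 with a pseudocount of 0.1 and -2.46 on recovered reads.

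Tested transcript by transcript, 0 of the 54 member transcripts listed for all 15 libraries with a mean of at least 1 FPKM passed in any of the 3 comparisons. Among all 20766 such transcripts 0.00963% passed with Ang II in WT, 0.00482% between the infused genotypes and 0.0722% between infused KO and WT given saline.

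The table of KO saline lists far fewer transcripts than the others, 1015 of them shared by all 4 tables, and how they were chosen is not known here. It holds 5 member transcripts, of Adamts14, Adam12 (2 of them), Adam33 and Mmp19, and 4 of these are also in the other tables. Adamts14 ENSMUST00000092486 (5188 nt) is the only listed transcript of its gene, so its values in the other groups are those given above. It was at 8.69, 3.80, 2.93, 3.15 and 2.36 FPKM in KO saline (from KONS_387 up to KONS_627), against ranges of 0.0736 to 1.76 (WT saline), 0.631 to 3.60 (WT Ang II) and 0.423 to 1.29 (KO Ang II). All 5 KO saline animals lay above all WT saline and all KO Ang II animals, and overlapped the WT Ang II animals. Of the 643 tested transcripts in all 4 tables, 3.27% had KO saline wholly above WT saline and 8.40% had it wholly above KO Ang II.

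The Adamts14 transcript was higher in KO saline than in WT saline by 1.40 on the log2(FPKM + 1) scale (95% interval 0.71 to 2.09, limma adjusted p = 0.0157), in a fit where 4.04% of the 643 transcripts passed. KO Ang II minus KO saline was -1.46 (-2.15 to -0.77, limma adjusted p = 0.00607), where 26.3% passed and the median transcript differed by 0.48. The Ang II difference in KO minus that in WT was -2.17 (-3.15 to -1.19, limma adjusted p = 0.00932), where 5.29% passed. These adjusted values hold only within the 643 transcripts. Whether transcripts were listed for KO saline because they differed is not known, so the values cannot tell how unusual Adamts14 is among all transcripts. Without KO saline animal KONS_387, the highest, the first difference was 1.15 (limma adjusted p = 0.0502), and without WT saline animal WTNS_373, the lowest, 1.21 (limma adjusted p = 0.0681). Without all animals numbered below 500 none of the 3 passed: the differences were 0.83, -1.05 and -1.53 (limma adjusted p = 0.448, 0.0852 and 0.147).

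The other 3 shared transcripts did not pass in any of these comparisons. Adam12 ENSMUST00000067680 was at 2.35, 3.45, 7.37, 5.81 and 4.16 FPKM in KO saline, which overlapped the WT saline values given above, and KO Ang II minus KO saline was 1.01 (limma adjusted p = 0.0811). Adam33 ENSMUST00000147333 was at 0.639, 0.976, 2.48, 1.83 and 3.31 FPKM in KO saline and Mmp19 ENSMUST00000219404 at 2.43, 0.641, 0.7102, 0.985 and 0.945 FPKM. For Mmp19, KO saline minus WT saline was -1.07 (limma adjusted p = 0.171). The second Adam12 transcript, ENSMUST00000206426, was at 0.115, 0.225, 0.704, 0.274 and 0.335 FPKM and is listed for KO saline only.

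**Figure D5:**
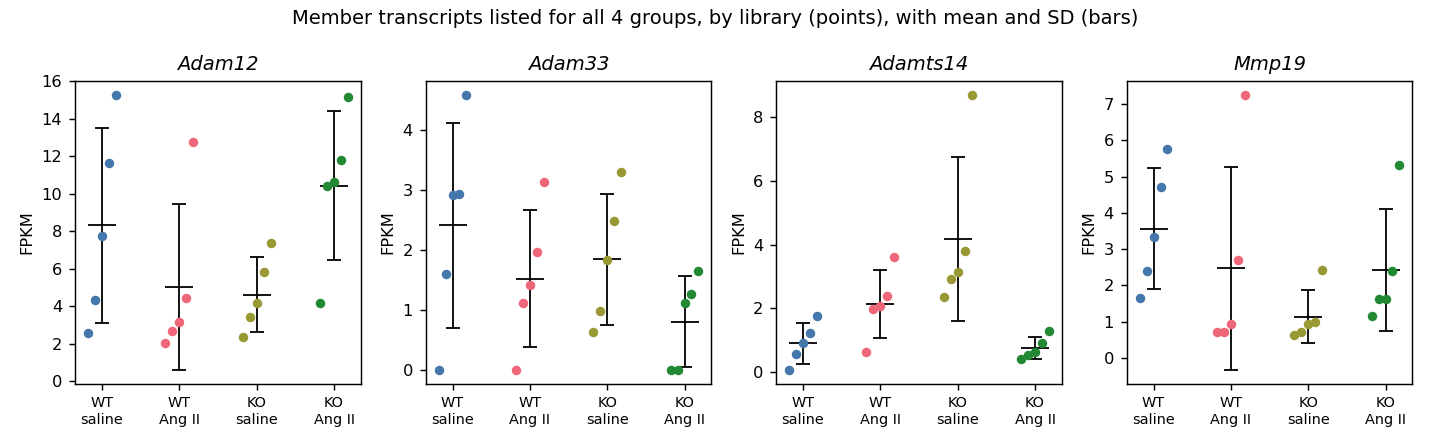
FPKM of the 4 member transcripts listed for all 4 groups, by animal (points), with mean and SD (bars). Adamts14 in KO saline spans 2.36 to 8.69 FPKM, above all WT saline and KO Ang II animals.

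The RNAs of proteins that work with these proteases gave no call either. Of 38 matrix proteolysis partners (such as the furin-like convertases, plasminogen activators and their inhibitors, cathepsins and procollagen processing factors), 30 were tested and 0 passed in the 3 comparisons. Their median differences were 0.15, -0.19 and 0.11 in the 3 comparisons in the order above, with 23, 10 and 16 of 30 above 0. Sparc, Cst3, Serpine2 and Ctsd were the most abundant, with means of 1595, 974, 329 and 325 FPKM. Of 10 ADAM trafficking partners, such as the iRhoms and the tetraspanins that carry ADAM10, 7 were tested and 0 passed. Their medians were 0.10, 0.07 and 0.13, with 5, 4 and 7 of 7 above 0. Over all genes 52.6%, 48.6% and 52.7% were above 0. Pdia6, Rhbdf1, Tspan14 and Tspan5 were the most abundant trafficking partners at 75.3, 17.8, 13.9 and 10.97 FPKM. Of 40 known substrates 33 were tested and 0 passed, with medians of 0.17, -0.20 and 0.03 and with 28, 11 and 21 of 33 above 0. Bgn, Dcn, Fn1 and Col3a1 led them with means of 1763, 974, 615 and 581.1 FPKM.

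The other tested members were at lower or middling levels and were not among those named by p. Mmp19, a secreted protease of basement membrane and matrix, ranged over 7.84 to 17.8 FPKM in the 15 libraries, and Mmp28 (epilysin) over 1.89 to 14.1. The membrane-anchored Mmp16 (MT3-MMP) ranged over 0.607 to 1.77, Mmp11 (stromelysin-3) over 0.176 to 4.14 and Mmp27 over 0 to 2.58 FPKM. Mmp27, too, passed the filter only through groups where it was higher, the WT groups, with group means of 1.14, 1.29 and 0.768 FPKM. Of its 2 transcripts 1 was unlisted for KO Ang II and counted as 0 there. Of the ADAMs, Adam19 ranged over 1.34 to 6.52, the protease-dead Adam11 over 0.0494 to 6.17 and Adam1a over 0.00389 to 2.87 FPKM, the last 2 lowest in KO Ang II animal KOAngII612. Adamts9 ranged over 5.18 to 14.6 and Adamts10 over 1.38 to 3.53 FPKM.

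The remaining listed genes were in 1 set of tables only or averaged under 1 FPKM. Adam22 was listed for WT only, at 0 to 1.40 FPKM in saline and 0 to 0.848 in Ang II. Adam8, Adamts7 and Adamts20 were listed for KO Ang II only, at 0 to 0.944, 0.346 to 0.829 and 0.0271 to 1.03 FPKM. In the WT tables, the higher group mean of every transcript was at least 0.5 FPKM. Transcripts listed for KO Ang II and not for WT averaged at least 0.5 FPKM there. Being unlisted in these tables therefore does not mean being at 0, and Adam22, Adam8, Adamts7 and Adamts20 were not compared. Adam5, Adamts3, Adamts4 and Adamts6 were in both sets of tables but under the filter, with means of 0.293, 0.347, 0.632 and 0.903 FPKM and highest values of 1.448, 1.17, 1.26 and 3.71 FPKM. The 35 genes that were not listed include the collagenases Mmp1a, Mmp1b and Mmp13, the macrophage elastase Mmp12 and most of the testis ADAMs.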

How the data were processed

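RNA of the abdominal aorta was sequenced in 20 libraries; per the labels' protocols, TRIzol was used for the RNA and a NEBNext Ultra kit for the libraries. FPKM per transcript was computed by the authors and deposited. The submitters' processing notes name bcl2fastq, FastQC, fastp and mm10, with the aligner and quantifier not given in the sources used here. Gene names, lengths and positions came from GENCODE M21 (GRCm38), and promoter windows from RefSeq (GRCm38.p6).

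FPKM of annotated transcripts were summed per gene, with an unlisted transcript taken as 0. This touched 6 tested members with a transcript in 1 set of tables only: Adam17, Adam23, Adamts9, Adamtsl1, Mmp2 and Mmp27. Differences of log2(FPKM + 1) were tested with limma 3.58.1 (trend, robust) in R 4.3.3, with 15 libraries in 1 model and Benjamini-Hochberg adjustment over the 12643 genes with a mean of at least 1 FPKM. The pseudocount of 1 shrinks differences of low genes. KO saline entered only a fit of the 643 transcripts listed in all 4 tables. Of the values below 50 reads, 97.99% to 99.15% came out within 0.05 of a whole read, and voom on those reads was an alternative, with no count test as the main result. Others were the pseudocount, filter, normalization, weights, marker covariates, subsets of libraries and each library left out. The fit was tested on simulated data. Correlations used permutation tests (scipy 1.17.1).

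Named were, per comparison, the 8 members with the smallest p (none passed), the 5 most abundant of each family and all Timp genes, and members in 1 table or under the filter. Members, lists and tests were chosen with earlier results of these data known. Nothing says that libraries of a group came from separate animals beyond their numbers, so p-values measure the spread between these libraries.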

Additional observations from a re-analysis of the deposited data

Results flagged for a closer look

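In 93 groups of 5 animals (31 named members in 3 groups), 10 values stood apart from the rest of their group by Dixon's ratio at the 95% level. Chance gives about 1 in 20 groups, or 4.65. The members share their libraries, so the 93 groups are not independent and no excess over chance can be read from this. The largest was Timp1 in KO Ang II animal KOAngII612, at 242 FPKM against 20.4 in the next animal of the group. In KO Ang II animal KOAngII560, Timp2 was at 401 FPKM against 240.2 in the next, Adamtsl2 at 18.8 against 9.86 and Adam10 at 30.4 against 23.1. In WT saline animal WTNS_373, Adamtsl3 was at 4.96 FPKM against 2.16 in the next and Adamtsl5 at 0.56 against 5.44. In other WT saline animals, Mmp3 was at 92.9 FPKM in animal WTNS_369 against 61.3, and Adam23 at 3.15 in animal WTNS_523 against 1.38. In WT Ang II, Adam12 was at 12.8 FPKM in animal WTAngII580 against 4.44, and Mmp8 at 1.08 in animal WTAng_II536 against 0.31.

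The Ang II difference of the Adamts14 transcript ENSMUST00000092486 differed between KO and WT by -2.17 on the log2(FPKM + 1) scale (limma adjusted p = 0.00932), and the difference itself was tested. Its mean was 0.91 FPKM in WT saline, 2.14 in WT Ang II, 4.19 in KO saline and 0.77 in KO Ang II. The fit covered only the 643 transcripts listed in all 4 tables, of which 5.29% passed. Without animals numbered below 500 the difference between KO and WT was -1.53 and did not pass.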

How the results depend on the processing

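No member passed a limma adjusted p of 0.05 in any of the 3 comparisons under any alternative run. Of 616 recomputed differences of the named members, 614 kept their direction and side of the threshold; the 2 that changed sign were Adam23 on recovered reads (voom), at -0.0300 between the infused genotypes and -0.0601 for KO Ang II against WT saline. Over all genes, calls numbered 2 for WT Ang II against WT saline and 6 between the infused genotypes among libraries alike in intestinal transcripts. KO Ang II against WT saline gave 30 genes with sample quality weights, 1 with the marker means in the fit and 0 without animals numbered below 500. With each library left out in turn the counts were 0 to 1, 0 to 7 and 7 to 15; the 7 came without WT Ang II animal WTAngII580 (2 without animal WTAngII581), and the third comparison had 7 without KO animal KOAngII537 and 8 without saline animal WTNS_547. The members' median difference was 0.05 to 0.19, -0.20 to -0.10 and -0.05 to 0.06 in the same runs. Among other alternatives its sign turned for KO Ang II against WT Ang II only with the marker means (0.0047), and for KO Ang II against WT saline with sample quality weights (-0.02), marker means (-0.03) and without animals numbered below 500 (-0.03).

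For the Adamts14 transcript, alternatives chosen after seeing the data gave 0.83, -1.05 and -1.53 without animals numbered below 500, and 1.15 to 1.55, -1.59 to -1.21 and -2.39 to -1.92 with each library left out in turn. No paired analysis was possible because the replicate numbers are animal numbers and no group shares one with another. The deposited tables hold no counts, and low genes rest on few reads.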
